A study of Mus musculus with 37 samples.

Results

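A set of 10 genes that canonical Wnt signalling is known to switch on, many of which feed back on the pathway, was followed through tailbud tissue of mouse embryos at E8-8.5. They are Axin2, Nkd1, Sp5, Sp8, Lef1, Tcf7, Notum, Dkk1, Lgr5 and Znrf3. They were chosen by name, as the rows of the authors' raw count table with these symbols, and all 10 were found among its 35542 genes. All 10 had counts in every library and passed the filter on low counts in each fit described here. The data are 37 single-embryo RNA-seq libraries. The 21 wt embryos were Smchd1[fl/+], which here means wild type with a loxP-flanked maternal allele, and the 16 matdel embryos were Smchd1[del/+], whose maternal allele was deleted while the paternal one was not. Smchd1 encodes a chromatin protein of gene silencing. Mothers of matdel embryos were del/fl and carried MMTV-Cre, a Cre recombinase under a mammary tumour virus promoter that deleted the gene in the oocyte, whereas control mothers were fl/fl and MMTV-Cre+/+ in the notation of the methods, read here as without the transgene. Fathers were Smchd1+/+ Castaneus (Cast) mice in both crosses. All embryos were therefore C57BL/6/Cast F1 hybrids with an intact paternal allele, of both sexes, and the tissue was cut below the last formed somite at 6, 7, 8, 9, 10 or 11 somites. The wt groups held 4, 4, 3, 3, 4 and 3 embryos at these stages, and the matdel groups held 4, 3, 2, 2, 3 and 2. Of the wt embryos 13 were female and 8 male, and of the matdel embryos 11 were female and 5 male. All embryos with 6 somites were female, as were the matdel embryos with 8 or 9 somites. A matdel embryo lacks both the oocyte's supply and its own maternal copy of Smchd1, and its mother was del/fl and carried Cre. The effects of these cannot be told apart. According to the paper, its MMTV-Cre animals also held some FVB genome. The questions were how high each gene was, how much embryos of 1 genotype and somite number differed, whether the genes moved together, and whether they changed with somite number or genotype.

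Canonical Wnt signalling stabilises beta-catenin, which joins DNA-binding proteins of the TCF/LEF family and activates their target genes. In the tailbud, Wnt3a and other ligands keep axial progenitors in place and specify the mesoderm that will form somites, and several targets of the pathway are known to oscillate with the segmentation clock. Many targets restrain the pathway that induced them. Axin2 is a scaffold of the complex that destroys beta-catenin, and Nkd1 encodes a cytoplasmic protein that binds Dishevelled. Notum is a secreted enzyme that strips the lipid from Wnt ligands, and Dkk1 is a secreted antagonist of the LRP5/6 co-receptors. Znrf3 is a membrane ubiquitin ligase that clears Frizzled receptors, and Lgr5 is a receptor for R-spondins, which protect Wnt receptors from Znrf3. Sp5 and Sp8 are zinc-finger transcription factors of the Sp family, and Lef1 and Tcf7 are the DNA-binding partners of beta-catenin themselves.

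The 250 bases before the annotated starts of Sp5 and Axin2 are shown because these genes were correlated over all embryos (r = 0.67, below). That r was 0.86 in wt and 0.03 in matdel embryos, and 0.44 without wt 10 somites replicate 1. Of the 2 genes, only Sp5 holds the searched TCF/LEF core motif there. Both stretches are read on the strand of the gene from the RefSeq promoter table of GRCm38.p6. Sp5 lies at chr2:70474923-70477729 on the + strand and its stretch is chr2:70474673-70474922. Axin2 lies at chr11:108920349-108950783 on the + strand and its stretch is chr11:108920099-108920348. Capitals mark the searched motif CTTTGAT.
Sp5: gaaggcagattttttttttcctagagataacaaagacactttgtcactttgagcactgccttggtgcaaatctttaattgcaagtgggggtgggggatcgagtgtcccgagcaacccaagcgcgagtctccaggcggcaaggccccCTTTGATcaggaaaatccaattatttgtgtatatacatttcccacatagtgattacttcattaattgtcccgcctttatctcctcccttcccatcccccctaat
Axin2: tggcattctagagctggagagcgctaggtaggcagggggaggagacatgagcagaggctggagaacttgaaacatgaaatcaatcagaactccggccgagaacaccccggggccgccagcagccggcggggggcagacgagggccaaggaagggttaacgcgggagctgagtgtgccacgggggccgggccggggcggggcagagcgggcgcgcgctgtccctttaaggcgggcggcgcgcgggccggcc
The motif was searched on both strands, its reverse complement being ATCAAAG, in windows from 250 bases before to 50 after each start. Of 32851 such windows in the table, 1225 (3.73%) held at least 1 match. A window was found for 7 of the 10 genes: Axin2, Nkd1, Sp5, Sp8, Lef1, Tcf7 and Dkk1. Those of Nkd1, Lef1 and Dkk1 lie at other starts than the one in the count table. The match in Sp5, which starts 104 bases before the start site on the + strand, was the only one in these windows. The Sp5 stretch was 46.0% G or C with 6 CpG dinucleotides, and that of Axin2 was 69.2% G or C with 24. A match is a run of letters and not a site shown to be bound, and its absence elsewhere says only that these letters are not in those windows.

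In units of 1e6 counts, libraries held 3.06 to 80.6 in wt (median 12) and 0.916 to 30.2 in matdel (median 14.2). Levels are given as CPM, counts per 1e6 counts of the library after TMM scaling. Smchd1 itself was 105 to 204 CPM (median 150) in wt and 64.0 to 112 CPM (median 89.5) in matdel tailbuds, a log2 difference of -0.74 (SE 0.07, adjusted p = 1.45e-07, edgeR). All 10 tailbud markers were in the table, and their summed level was 1341 to 2046 CPM in 36 of the embryos. The remaining library, wt 10 somites replicate 1, stood apart with 823 CPM. Its primitive erythroid sum was 3810 CPM against a median of 452 in the others, and its visceral and gut endoderm sum was 2690 CPM against a median of 906. All 10 Wnt genes were below their group mean in that embryo, and for 7 of them (Axin2, Nkd1, Sp5, Sp8, Lef1, Tcf7 and Dkk1) it was the lowest of all 37 relative to the group mean. Somite markers, which the cut was meant to leave out, summed to 7.54 to 58.9 CPM over all embryos, with Pax1 at 0 in every library. Values that turned on the 10-somite embryo are given with and without it for the spread, the relations between genes and the called differences. Another pair of libraries, matdel 6 somites replicates 1 and 2, held 1.82 to 2.77% ribosomal RNA counts against 0.176 to 1.28% in the other 35. In whole tissue, fewer cells of a type and less RNA per cell cannot be told apart.

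Per kilobase of annotated exon, Tcf7 was the highest of the 10 genes and Lgr5 the lowest. Mean levels over the 37 embryos were 41.4 ± 4.18 CPM per kilobase for Tcf7 (SD, n = 37), 26.8 ± 5.10 for Axin2 and 22.7 ± 3.77 for Nkd1. They were 19.5 ± 3.10 CPM per kilobase for Lef1, 18.2 ± 5.54 for Sp5, 16.8 ± 4.51 for Notum, 14.6 ± 6.49 for Dkk1 and 14.1 ± 2.92 for Sp8. Znrf3 followed at 3.28 ± 0.41 CPM per kilobase and Lgr5 at 0.598 ± 0.201. The median over all genes tested was 4.70 CPM per kilobase, so 8 of these genes were above it. The top of the order was stable from embryo to embryo: Tcf7 was above Axin2 in 36 of 37 embryos and Axin2 above Nkd1 in 34. In the middle the neighbours kept no fixed order over the 37 embryos. Lef1 was above Sp5 in 22 embryos, Sp5 above Notum in 22, Notum above Dkk1 in 26 and Dkk1 above Sp8 in 17. For Notum and Dkk1, of 2408 and 2427 exon bases, the order changed with stage. In wt embryos with 6 or 7 somites Notum was 40.3 to 58.5 CPM and Dkk1 19.6 to 37.4 CPM. In wt embryos with 11 somites Notum was 19.3 to 26.4 CPM and Dkk1 53.6 to 82.3 CPM. The matdel ranges at these stages were also apart, in the same order. Sp8 was above Znrf3, and Znrf3 above Lgr5, in all 37. Lgr5 rested on as few as 5 counts in a library, whereas Axin2 had at least 217. On GRCm38 as in the count table, the other genes lie at chr8:88521354-88594884 (Nkd1, + strand), chr12:118846329-118852576 (Sp8, + strand), chr3:131110471-131224356 (Lef1, + strand), chr11:52252371-52283014 (Tcf7, - strand) and chr11:120653788-120661175 (Notum, - strand). Dkk1 lies at chr19:30545863-30549665, Lgr5 at chr10:115450311-115587780 and Znrf3 at chr11:5276324-5444847, all on the - strand. Counts are per gene over its annotated exons. Some exon bases overlap antisense genes, 29.4% of those of Notum with Notumos, 13.8% of those of Lef1 with Gm43352 and 3.80% of those of Axin2 with Gm11670. The kits were stranded or non-stranded and strand-specific counting was not stated, so reads of these genes and their antisense partners cannot be separated.

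**Figure D1:**
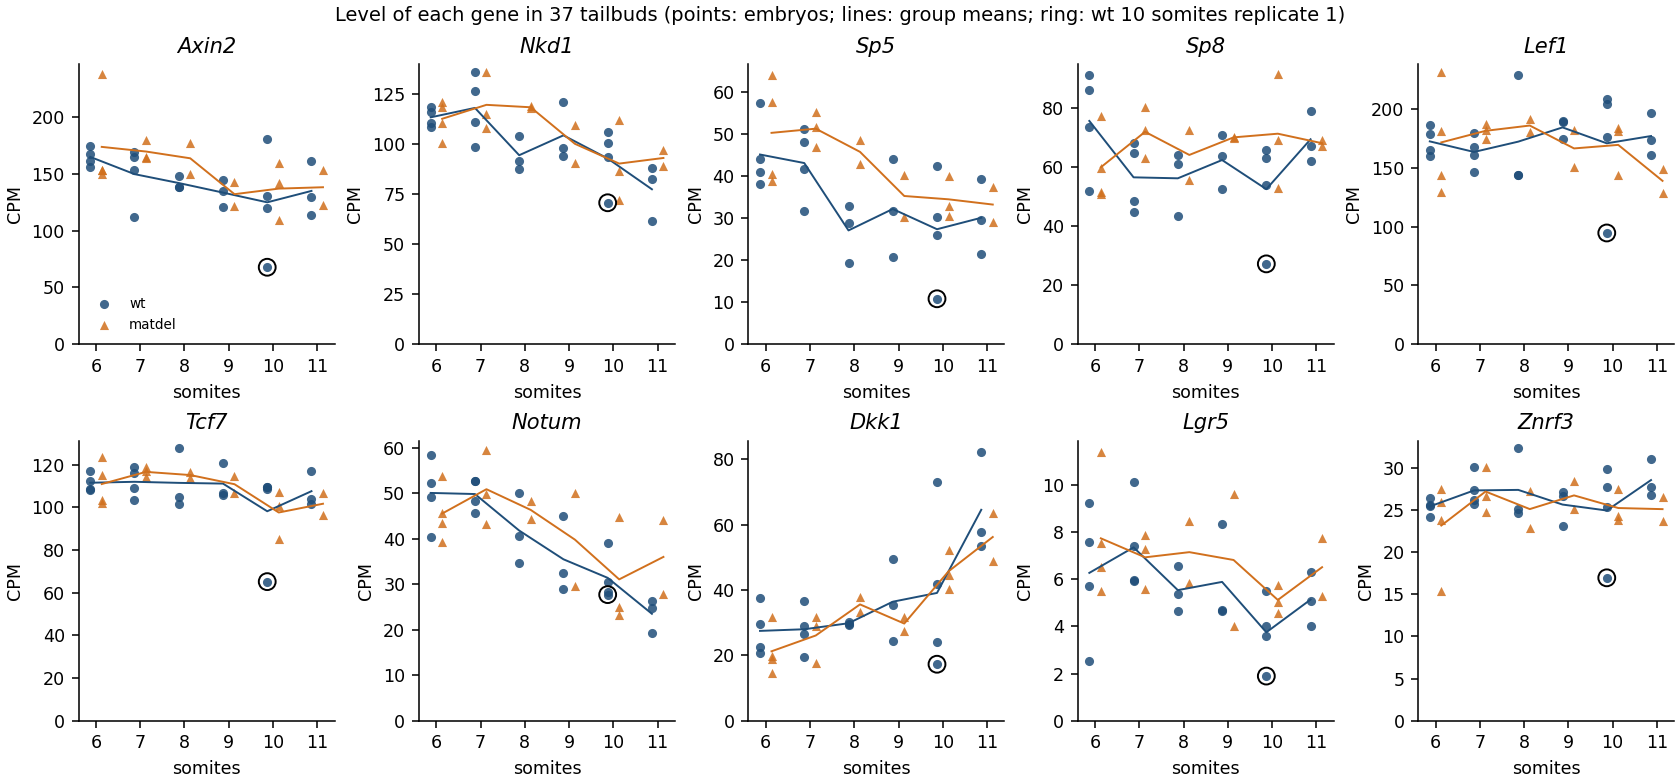
Level of each gene in CPM (y axis) against somite number (x axis) in 37 tailbuds, with wt embryos as circles, matdel embryos as triangles, lines through the means of each genotype and stage, and a ring around wt 10 somites replicate 1. Notum falls from between 40.3 and 58.5 CPM in wt embryos with 6 or 7 somites to between 19.3 and 39.0 with 10 or 11, while Dkk1 rises in both genotypes and Znrf3 stays close to its overall level.

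Among the secreted inhibitors, Notum fell and Dkk1 rose as somites were added in wt embryos. Notum was 40.3, 58.5, 52.3 and 49.2 CPM in the wt embryos with 6 somites and 52.6, 45.7, 52.6 and 48.4 CPM in those with 7. It was 50.1, 34.7 and 40.6 CPM with 8 somites and 44.9, 32.5 and 29.0 CPM with 9. It was 27.7, 30.6, 39.0 and 28.3 CPM with 10 somites and 19.3, 24.9 and 26.4 CPM with 11. Every wt embryo with 6 or 7 somites was therefore above every wt embryo with 10 or 11. The slope fitted with edgeR over the 21 wt embryos was -0.21 log2 per somite (SE 0.03, 95% interval -0.27 to -0.16, adjusted p = 4.52e-05). In matdel embryos Notum was 39.4 to 59.5 CPM (median 45.7, n = 7) with 6 or 7 somites. It was 48.3 and 44.4 CPM with 8, 50.1 and 29.5 CPM with 9, 44.8, 23.3 and 25.1 CPM with 10, and 44.1 and 28.0 CPM with 11. Here the early and late embryos overlapped, and the slope was -0.11 log2 per somite (SE 0.04, adjusted p = 0.148). The difference between the 2 Notum slopes was 0.09 log2 per somite (95% interval -0.02 to 0.19, unadjusted p = 0.0954), and no gene of 15978 passed that test (0.0% called by edgeR, 0 also by DESeq2, with 626 genes at unadjusted p under 0.05). For reference, 3.06% of 14857 genes rose and 2.71% fell with somite number in wt embryos, and in matdel embryos 2.48% of 15255 genes rose and 1.71% fell.

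Dkk1 was 22.5, 20.6, 37.4 and 29.5 CPM in wt embryos with 6 somites and 36.8, 28.9, 26.7 and 19.6 CPM in those with 7. It was 30.3, 29.5 and 29.8 CPM with 8 somites and 24.4, 35.5 and 49.4 CPM with 9. At 10 somites it was 17.3, 73.2, 24.2 and 41.9 CPM, and at 11 somites 53.6, 57.8 and 82.3 CPM. The 3 wt embryos with 11 somites were above every wt embryo with 6, 7, 8 or 9 somites, whereas those with 10 somites spanned nearly the whole range. The wt slope was 0.22 log2 per somite (SE 0.05, adjusted p = 0.0179), and it was 0.18 (adjusted p = 0.0734) without wt 11 somites replicate 3 and 0.24 (adjusted p = 0.0019) without wt 10 somites replicate 1. In matdel embryos Dkk1 was 14.6 to 31.8 CPM (median 19.7, n = 7) with 6 or 7 somites, and 44.6, 40.2, 52.3, 63.5 and 49.0 CPM with 10 or 11. These ranges did not overlap, and the matdel slope of 0.28 log2 per somite (SE 0.04, adjusted p = 2.49e-04) stayed past the threshold in all 25 alternatives tried. Dkk1 was thus the single one of the 10 genes whose slope was called in both genotypes.

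Nkd1, of the intracellular inhibitors, also fell in wt embryos. Its lowest, median and highest wt levels were 98.7, 114 and 136 CPM with 6 or 7 somites (n = 8), 87.8, 96.1 and 121 CPM with 8 or 9 (n = 6), and 61.9, 88.0 and 106 CPM with 10 or 11 (n = 7). The wt slope was -0.10 log2 per somite (SE 0.02, adjusted p = 0.0111), with overlap between the early and late embryos. In matdel embryos it went from 100.9, 115 and 136 CPM (lowest, median and highest of 7) to 112, 72.0, 86.9, 97.1 and 89.2 CPM at 10 or 11 somites, with a slope of -0.08 (SE 0.02, adjusted p = 0.0587). That slope passed the threshold without matdel 6 somites replicate 3 (-0.09, adjusted p = 0.0367) or without matdel 10 somites replicate 1 (-0.09, adjusted p = 0.0462). Axin2 had slopes of -0.07 in wt (SE 0.03, adjusted p = 0.193) and -0.08 in matdel embryos (SE 0.03, adjusted p = 0.105), and neither passed.

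Of the 4 transcription factors, Sp5 was the one with a called slope, in matdel embryos. Its matdel levels were 38.9 to 63.9 CPM (median 51.6, n = 7) with 6 or 7 somites, 48.6, 42.9, 40.2 and 30.3 CPM with 8 or 9, and 32.9, 30.4, 40.0, 37.3 and 29.1 CPM with 10 or 11. The early and late ranges met only between 38.9 and 40.0 CPM. The matdel slope was -0.15 log2 per somite (SE 0.03, adjusted p = 0.0061) and the wt slope -0.14 (SE 0.05, adjusted p = 0.0994), with a difference of 0.01 (95% interval -0.13 to 0.15). The wt values were wider: 31.6 to 57.3 CPM (median 42.9, n = 8), then 19.4 to 44.0 CPM (median 30.3, n = 6), then 10.8 to 42.3 CPM (median 29.5, n = 7). Sp8, Lef1 and Tcf7 had slopes between -0.04 and 0.03 log2 per somite in either genotype, none past the threshold. Lef1 was 166 CPM at the median of the wt embryos with 6 or 7 somites and 177 CPM at that of those with 10 or 11.

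At the level of the receptors, Znrf3 had slopes of 0.01 log2 per somite in wt (95% interval -0.04 to 0.06) and 0.00 in matdel embryos (95% interval -0.06 to 0.06). Lgr5 had a slope of -0.13 in wt (SE 0.06, adjusted p = 0.227) and -0.10 in matdel embryos (SE 0.05, adjusted p = 0.339). Its wt levels were 2.54 to 10.1 CPM with 6 or 7 somites and 1.90 to 6.33 CPM with 10 or 11, which overlapped widely. Counting the 10 genes together, wt embryos gave 1 called rise and 2 called falls, and matdel embryos 1 of each. Of all genes, 3.06% rose and 2.71% fell in wt, and 2.48% rose and 1.71% fell in matdel embryos.

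**Figure D2:**
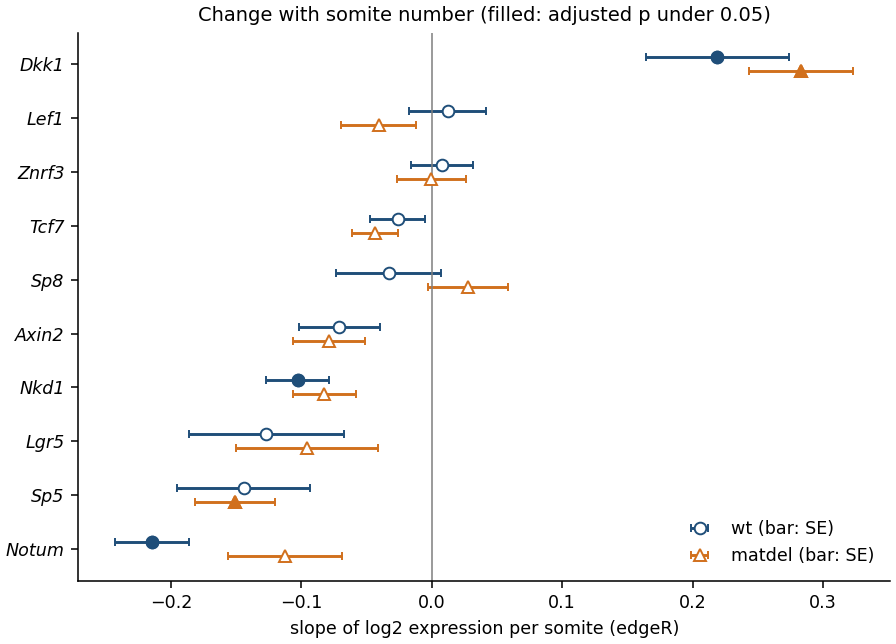
Fitted slope of each gene in log2 expression per somite (x axis) in the 21 wt embryos (circles) and the 16 matdel embryos (triangles), with bars of 1 SE and filled symbols where the adjusted p was under 0.05. Dkk1 lies on the right in both genotypes at 0.22 and 0.28, Notum lies farthest left in wt at -0.21, and the other symbols lie between -0.15 and 0.03.

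Marker sums of other tissues also differed between early and late embryos, with wide overlap, and no slope was fitted to the sums. The primitive erythroid sum (6 of 6 markers in the table, none at 0 in all embryos) ranged from 12.9 to 1425 CPM in wt embryos with 6 or 7 somites and from 112 to 3810 CPM with 10 or 11, and in matdel embryos from 10.0 to 3067 and from 436 to 4172 CPM. The visceral and gut endoderm sum (8 of 8 markers, none at 0 in all embryos) went from 497 to 2628 CPM to 96.0 to 2690 CPM in wt, and from 584 to 1709 CPM to 126 to 2738 CPM in matdel embryos. The median endoderm sum fell from 1309 to 291 CPM in wt and from 1083 to 233 CPM in matdel embryos between these stages. With both sums as covariates, an alternative chosen after seeing the data, the wt slopes were -0.15 for Notum (adjusted p = 0.115), -0.08 for Nkd1 (adjusted p = 0.405) and 0.11 for Dkk1 (adjusted p = 0.666). None was called, and 12 genes were called in all. The wt slope of Sp8 was steeper in that fit, at -0.15 (SE 0.05, adjusted p = 0.229) against -0.03 without the covariates. In matdel embryos Dkk1 was 0.34 (adjusted p = 0.0063) and Sp5 -0.17 (adjusted p = 0.157), with 61 genes called. Taken singly, 1 of 6 erythroid markers had a called rise in each genotype. Of 8 endoderm markers 1 had a called fall in wt and 0 in matdel embryos. Endothelial markers were not among the covariates, and 2 of 5 rose in wt and 3 of 5 in matdel embryos. The shares of all genes are those given above. How much of the slopes goes with other tissues in the cut was not tested beyond these fits.

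The rest of the pathway showed both directions. Of 55 listed Wnt pathway components, 51 were tested in wt embryos, of which 7 rose and 2 fell with somite number. That is 17.6% called, where 3.06% of all genes rose and 2.71% fell. The median slope of the list was 0.02 log2 per somite beside 0.00 for all genes. Wnt8a, a ligand of the early posterior embryo, fell by 0.33 log2 per somite in wt (SE 0.06, adjusted p = 0.0021) and by 0.47 in matdel embryos (SE 0.08, adjusted p = 0.0013). Wnt5a, a ligand of mostly non-canonical signalling, rose by 0.15 in wt (SE 0.03, adjusted p = 0.0065) and 0.17 in matdel embryos (SE 0.04, adjusted p = 0.0071). Sfrp2, a secreted Wnt-binding protein, rose by 0.15 in wt (adjusted p = 0.0028), as did Kremen2, a gene for a Dkk receptor at 0 to 2.08 CPM, by 0.55 (adjusted p = 0.0064) and the Frizzled receptor gene Fzd2 by 0.14 (adjusted p = 0.0077). None of these was called in matdel embryos. Their slopes there were 0.09 for Sfrp2 (adjusted p = 0.126), 0.40 for Kremen2 (adjusted p = 0.056) and -0.05 for Fzd2 (adjusted p = 0.573). In matdel embryos 3 components rose and 3 fell of 51 (11.8% called), where 2.48% of all genes rose and 1.71% fell. Of 19 tested other Wnt targets of the tailbud, Cdx1, a homeobox gene of axial patterning, fell by 0.34 log2 per somite in wt (adjusted p = 2.62e-05) and Dact1, a Dishevelled-binding protein gene that stands on both lists, rose by 0.13 (adjusted p = 0.0427). In matdel embryos 1 rose and 2 fell. The shares called of these targets were 10.5% in wt and 15.8% in matdel embryos, beside the same shares of all genes. Of 17 tested genes of the Notch and FGF segmentation clock, 3 rose in wt embryos and none fell: Nrarp by 0.31, Hes1 by 0.13 and Hey1 by 0.15, all Notch targets. In matdel embryos 3 of 18 rose. The shares called of the clock genes were 17.6% in wt and 16.7% in matdel embryos, beside the same shares of all genes.

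By SD, embryos of the same genotype and somite number differed most in Lgr5, Dkk1 and Sp5 and least in Tcf7 and Nkd1. The SD of log2 CPM around the group means was 0.49 for Lgr5, 0.46 for Dkk1, 0.42 for Sp5, 0.33 for Sp8, 0.29 for Notum and for Axin2, 0.27 for Lef1, 0.21 for Znrf3, 0.20 for Nkd1 and 0.17 for Tcf7, each with 25 residual degrees of freedom. The median over all 15978 genes was 0.29. A gene's spread depends on its level, so each was also ranked among genes within 0.5 log2 of its own mean. Dkk1 and Sp5 lay at the 97.6 percentile of such genes, Sp8 at 93.9, Axin2 at 93.7 and Lef1 at 90.7. Notum lay at 82.4, Nkd1 at 66.7, Lgr5 at 61.4, Tcf7 at 48.5 and Znrf3 at 35.2. By this rank Lgr5 came below Nkd1, and Tcf7 and Znrf3 were the lowest. Without wt 10 somites replicate 1 the SD was 0.46 for Lgr5, 0.41 for Dkk1, 0.33 for Sp5, 0.29 for Notum, 0.27 for Sp8, 0.22 for Axin2, 0.21 for Lef1, 0.18 for Znrf3 and for Nkd1 and 0.11 for Tcf7, with a median of 0.28 over all genes. Among genes of like level Dkk1 then lay at the 97.3 percentile, Sp5 at 93.1, Sp8 at 89.6, Notum at 86.1 and Axin2 at 85.6. Lef1 lay at 81.0, Nkd1 at 65.7, Lgr5 at 58.7, Znrf3 at 19.6 and Tcf7 at 11.5. Counting error alone would give an SD of 0.21 for Lgr5, the largest of the 10, and 0.09 for Dkk1. The embryo farthest from its group mean was wt 10 somites replicate 1 for Sp5, Sp8, Axin2, Lef1, Nkd1 and Tcf7. For Dkk1 it was wt 10 somites replicate 2, at 73.2 CPM, which lay 1.12 log2 above the mean of its group.

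**Figure D3:**
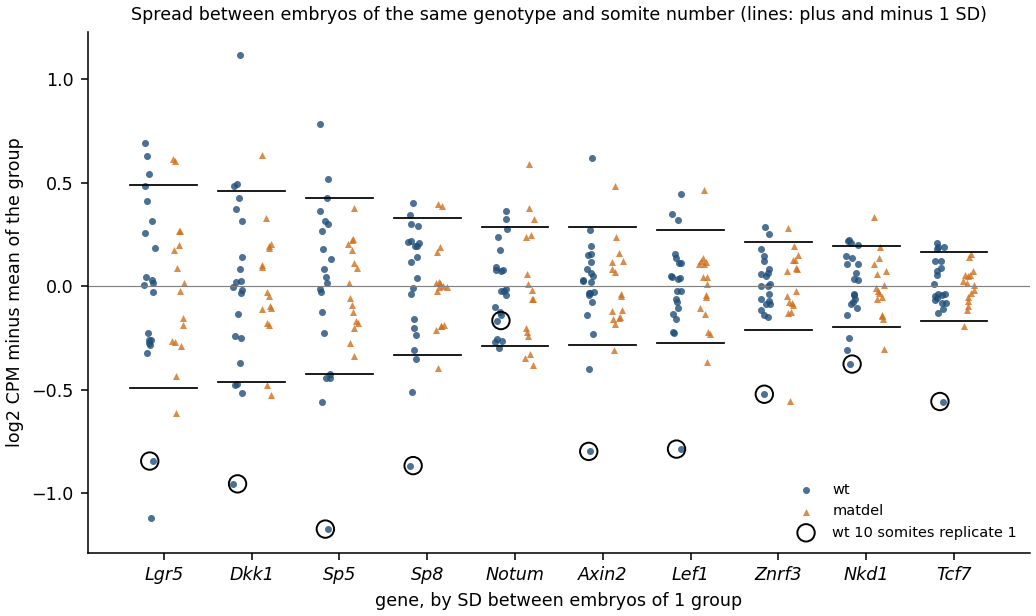
Log2 CPM of each embryo minus the mean of its genotype and somite group (y axis) for the 10 genes ordered by SD (x axis), with wt embryos as circles, matdel embryos as triangles, black lines at 1 SD on either side of 0, and rings around wt 10 somites replicate 1. The spread narrows from an SD of 0.49 for Lgr5 to 0.17 for Tcf7, and the ringed embryo lies below 0 for every gene.

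The strongest relation between embryos of a group was that of Nkd1 with Notum, the cytoplasmic and the secreted inhibitor. After subtracting the mean of each genotype and somite group, their log2 CPM values had r = 0.70 (permutation p = 5e-05) and rho = 0.69 (permutation p = 1.6e-04) over 37 embryos. The r was 0.70 within wt, 0.75 within matdel embryos, 0.64 without the 2 embryos farthest from the median of Nkd1, and 0.72 without wt 10 somites replicate 1. Leaving out each embryo in turn gave 0.63 to 0.77. In an edgeR fit over all genes, Notum changed by 1.09 log2 per log2 of Nkd1 (SE 0.20, adjusted p = 0.0216), and 0.586% of 16728 genes were called with Nkd1. Notum was called in the main fit and in all 8 alternatives, at 1.02 to 1.25 log2 per log2. In the fit on Notum 1 gene was called (0.00598%), and Nkd1 was not (0.48, SE 0.10, adjusted p = 0.0816). Without wt 10 somites replicate 1 Nkd1 was called there too (0.45, adjusted p = 0.0358).

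Most of the other relations rested on wt 10 somites replicate 1. Of the 45 pairs, 42 had a positive r over 37 embryos, with a median of 0.38, and 17 had a permutation p under 0.05. Without that embryo 27 were positive, the median was 0.11 and 7 had a p under 0.05. Over 37 embryos, the median r of all genes with each of the 10 ran from -0.06 (Lef1) to 0.12 (Znrf3). The 95 percentile of that r ran from 0.40 (Notum) to 0.69 (Lef1). How often pairs of all genes had a positive r or such a permutation p was not determined. In the edgeR fits 20 of the 90 directed relations were called, and 5 pairs were called both ways: Axin2 with Sp5, Nkd1 with Sp5, Sp8 with Tcf7, Lef1 with Tcf7 and Tcf7 with Znrf3. Without that embryo 2 were called, Nkd1 with Notum and Notum with Nkd1. These counts have to be read against the share of all genes called in each fit, which ran from 0.0% for Dkk1 and Lgr5 over 0.646% for Axin2, 1.93% for Sp5, 5.15% for Znrf3 and 7.65% for Sp8 to 15.3% for Tcf7 and 28.4% for Lef1. At unadjusted p under 0.05, 1856 genes and 5 of the Wnt genes were reached with Dkk1, and 2663 genes and none of the Wnt genes with Lgr5. No other tool was run for these fits.

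Axin2 and Sp5, whose upstream stretches are printed above, had r = 0.67 (permutation p = 0.00495) and rho = 0.53 (permutation p = 0.0051). The r was 0.86 in wt and 0.03 in matdel embryos. Over both genotypes it was 0.79 without the 2 shallowest libraries, matdel 6 somites replicate 3 and wt 7 somites replicate 2. It was 0.37 without the 2 farthest embryos and 0.44 (permutation p = 0.0259) without wt 10 somites replicate 1. Sp5 changed by 1.07 log2 per log2 of Axin2 (SE 0.22, adjusted p = 0.0271), and by 0.80 (adjusted p = 0.517) without that embryo and 0.99 (adjusted p = 0.0817) without wt 10 somites replicate 2. The relation of Axin2 with Dkk1, the other one called for Axin2, had r = 0.64 over all embryos, 0.62 in wt and 0.70 in matdel embryos. It was 1.07 log2 per log2 (adjusted p = 0.0363), and 0.93 (adjusted p = 0.545) without wt 10 somites replicate 1 and 0.77 (adjusted p = 0.195) without replicate 2. Both calls were therefore lost without either of these 10-somite embryos.

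Nkd1 and Sp5 had r = 0.65 (permutation p = 8.6e-04) over all embryos, 0.76 in wt, 0.42 in matdel embryos and 0.53 (permutation p = 0.00588) without wt 10 somites replicate 1. Lef1 and Tcf7, the nuclear partners of beta-catenin, had r = 0.69 (permutation p = 0.0259), but 0.94 in wt (0.83 without wt 10 somites replicate 1) and -0.07 in matdel embryos, and over both genotypes 0.37 (permutation p = 0.183) without wt 10 somites replicate 1. Lef1 and Znrf3 had r = 0.93 in wt, 0.80 there without that embryo, and -0.53 in matdel embryos. Over both genotypes it was 0.35, and 0.80 without the 2 shallowest libraries, matdel 6 somites replicate 3 and wt 7 somites replicate 2. For Lef1 and Tcf7 the r without these libraries was 0.83. In matdel 6 somites replicate 3, Znrf3 rested on 14 counts and lay 0.55 log2 below its group mean, while Lef1 lay 0.47 above. Whether any r differed between genotypes was not tested. Tcf7 was called with 7 of the other 9 genes, all but Notum and Lgr5, in a fit that called 15.3% of genes. It was called with none of them without wt 10 somites replicate 1, where 0.766% were called. Lef1 was called with Axin2, Sp8, Tcf7, Dkk1 and Znrf3, in a fit that called 28.4% of genes, and with none of them without that embryo, where 13.3% of 16700 genes were still called. The within-group level of Tcf7 also ran against the endoderm marker sum, with r = -0.68 (permutation p = 4e-04) over all embryos, -0.70 in wt and -0.77 in matdel embryos, and -0.62 (permutation p = 0.00218) without wt 10 somites replicate 1. That of Znrf3 also ran against the endoderm sum, with r = -0.52 (permutation p = 6.9e-04), and -0.37 (permutation p = 0.00622) without the same embryo. That of Lef1 ran with the tailbud marker sum (r = 0.73, permutation p = 0.00192). Relative to the group means, wt 10 somites replicate 1 was the lowest embryo for both, and the r was 0.46 (permutation p = 0.017) without it and 0.39 without the 2 embryos farthest from the median of Lef1. Lef1 was not alone in this: the tailbud sum had r = 0.75 with Tcf7 and 0.71 with Sp8. Without wt 10 somites replicate 1 these were 0.39 and 0.49. T, Cdx2, Cdx4, Tbx6, Msgn1, Wnt3a and Fgf8 of the tailbud sum also stand on the list of other Wnt targets. The r with this sum therefore cannot tell tailbud content apart from the level of other Wnt targets. The part of tissues in the relations was not tested beyond the fits with the endoderm and erythroid sums as covariates.

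**Figure D4:**
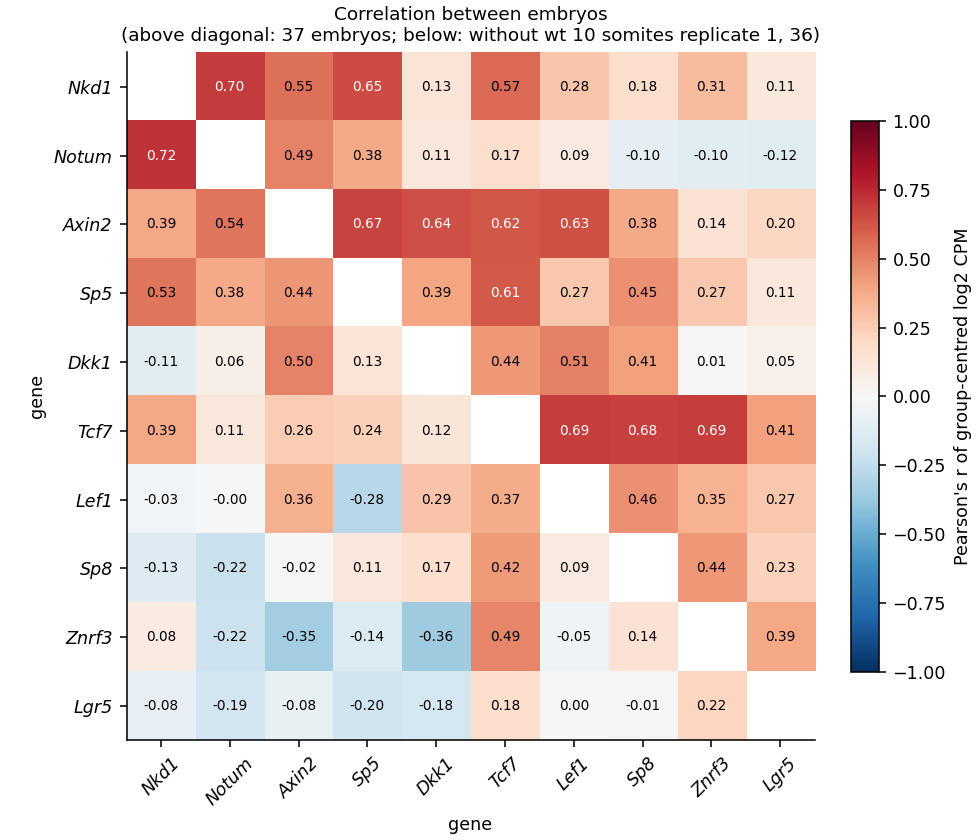
Pearson's r between the group-centred log2 CPM values of each pair of the 10 genes, as colour and printed value, over 37 embryos above the diagonal and over 36, without wt 10 somites replicate 1, below it. Nkd1 with Notum keeps its value (0.70 and 0.72), while the values among Tcf7, Lef1 and Sp8 are 0.46 to 0.69 above the diagonal and 0.09 to 0.42 below it.

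Over all genes tested, none of the 3 genes most like each of the 10 by this r was itself one of the 10. Evx1, a homeobox gene of the posterior embryo, and Tle3, a co-repressor that binds TCF/LEF proteins, were the 2 most like both Nkd1 (r = 0.81 and 0.80) and Sp5 (r = 0.84 and 0.83). The third was Shf for Nkd1 (0.78) and Fbxw4 for Sp5 (0.83). Without wt 10 somites replicate 1 the values for these 3 genes were 0.76, 0.75 and 0.76 for Nkd1 and 0.73, 0.73 and 0.74 for Sp5. Notum was most like Notumos (r = 0.87), and Axin2 most like Gm11670 (r = 0.82), each the antisense gene that overlaps it, so shared reads cannot be told apart from shared expression there. After Notumos came Dmwd (0.76) and Ano8 (0.72), and after Gm11670 came Sh3bp1 (0.81) and 4930474H06Rik (0.80). Without that embryo the 3 values were 0.88, 0.76 and 0.72 for Notum and 0.67, 0.66 and 0.64 for Axin2. Lef1 was most like Atrnl1 (0.92), Dock11 (0.91) and Mapk6 (0.89), and Tcf7 most like Yap1 (0.87), Sall3 (0.87) and Prkd1 (0.86). Without that embryo these were 0.86, 0.83 and 0.81 for Lef1 and 0.74, 0.68 and 0.61 for Tcf7. For Znrf3 they were Dhx33 (0.84), Smad3 (0.84) and Ctbp2 (0.83), and for Sp8 Oga (0.81), Epha5 (0.79) and Jag1 (0.79). Without that embryo these were 0.76, 0.76 and 0.78 for Znrf3 and 0.70, 0.67 and 0.64 for Sp8. Lgr5 was most like Fam187b (0.79), Smchd1 (0.73) and Nbn (0.72), and Dkk1 had the lowest values, with Sgsm1 (0.73), 4930474H06Rik (0.67) and Gm2670 (0.67). Without that embryo these were 0.74, 0.68 and 0.66 for Lgr5 and 0.71, 0.53 and 0.53 for Dkk1. Each r is over 37 embryos and is a description.

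No genotype difference of any of the 10 genes passed the threshold, at any stage, in either window or over all stages, by edgeR or by DESeq2. Over all stages 2 of 15978 genes were called (0.0125%), with somite number and sex in the model. With 6 to 8 somites it was 1 of 15652 (0.00639%), and with 9 to 11 somites 1 of 15757 (0.00635%). At each single stage, and for the difference between the windows, the share was 0.0% by edgeR, with 84 to 1327 genes per stage and 577 for the difference at unadjusted p under 0.05. DESeq2 called 3, 29 and 1 genes in the first 3 comparisons, 0 to 10 per stage and 2 for the difference, none of them among the 10. At unadjusted p under 0.05 edgeR reached 906 genes (5.67%) over all stages, of which 1 was among the 10. That count was 1 in each window, 0 for the difference between windows, 2 at 8 somites, 2 at 11 somites, 1 at 7 somites and 0 at 6, 9 and 10 somites.

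Sp5 had the largest fitted difference over all stages, 0.28 log2 higher in matdel embryos (SE 0.12, 95% interval 0.04 to 0.52, unadjusted p = 0.0209, adjusted p = 0.867), or 1.21-fold. At 8 somites Sp5 was 32.8, 19.4 and 28.9 CPM in wt and 48.6 and 42.9 CPM in matdel embryos, which did not overlap. Both of these matdel embryos were female, wt replicates 1 and 2 were male, and sex was not in the fits of single stages. How much of this difference goes with sex, and how often other genes separate at this stage, was not tested. At the other 5 stages the genotypes overlapped, for example 21.4, 29.5 and 39.2 CPM in wt and 37.3 and 29.1 CPM in matdel embryos at 11 somites. In all, 12 of 16 matdel embryos were above the wt mean of their stage. Without wt 10 somites replicate 1 the Sp5 difference was 0.24 (adjusted p = 0.717). Lgr5 had a difference of 0.27 log2 (95% interval -0.03 to 0.56), with 12 of 16 matdel embryos above the wt mean.

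For the other genes the 95% interval over all stages included 0. That of Tcf7 ran from -0.10 to 0.10 log2, that of Nkd1 from -0.06 to 0.19 and that of Znrf3 from -0.17 to 0.08. Axin2 lay between -0.07 and 0.26, Notum between -0.09 and 0.28, Sp8 between -0.08 and 0.32, Lef1 between -0.20 and 0.12, and Dkk1 between -0.38 and 0.18. Single stages stood out without passing. Notum at 11 somites was 19.3, 24.9 and 26.4 CPM in wt and 44.1 and 28.0 CPM in matdel embryos, 0.62 log2 higher (adjusted p = 0.567). Lef1 at 11 somites was 174, 161 and 197 CPM in wt and 129 and 149 CPM in matdel embryos, 0.35 log2 lower (SE 0.11, adjusted p = 0.567). The counts of stages without overlap were 0 to 2 of 6 per gene. The share over all genes was not determined, so these counts say nothing particular to these genes. None of the 53 tested Wnt pathway components, 19 other Wnt targets or 18 clock genes was called between genotypes over all stages either, with list medians of 0.04, 0.09 and 0.05 log2 beside 0.00 for all genes.

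**Figure D5:**
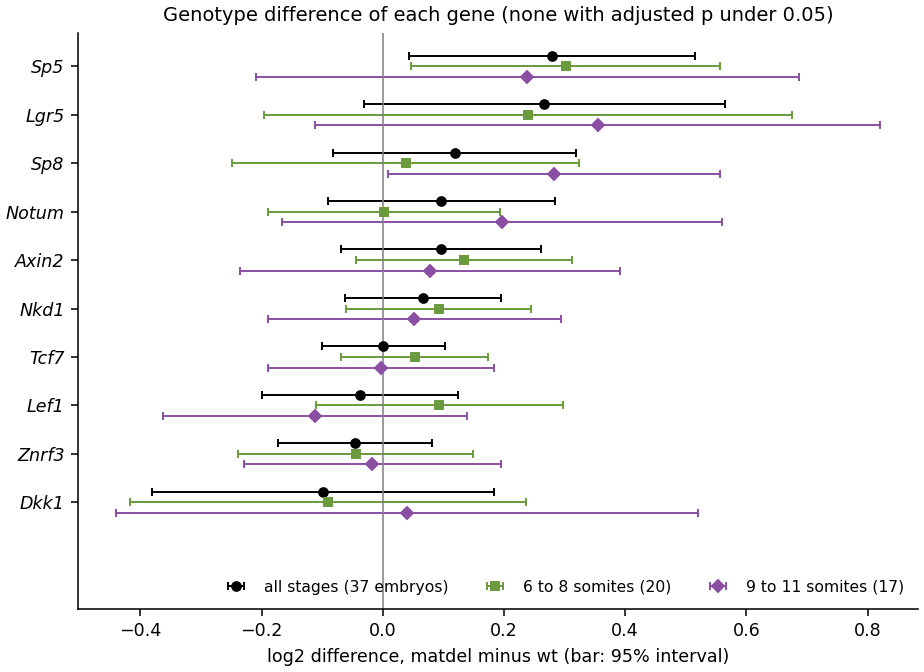
Fitted log2 difference of each gene, matdel minus wt (x axis), over all stages, with 6 to 8 somites and with 9 to 11 somites, with bars of the 95% interval. None had an adjusted p under 0.05, and over all stages the interval of Sp5 alone, 0.04 to 0.52, lies on 1 side of 0.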

How the data were processed

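Libraries were made per the labels from single tailbuds with stranded or non-stranded TruSeq mRNA kits, and which library had which is not given in the sources used here. The authors trimmed reads with Trim Galore 0.4.4, mapped them to GRCm38.p6 with HISAT2 2.0.5 and deposited raw counts per gene. Their list of called genes, with p-values and fold changes, and their log2 RPKM values of Hox genes were not used. Of 35591 rows, 49 with repeated identifiers were dropped.

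Counts were tested with edgeR 4.0.16 (R 4.3.3), two-sided quasi-likelihood test, after filterByExpr with the design matrix (minimum count 10) and TMM, with Benjamini-Hochberg adjustment over all genes and a threshold of 0.05. Stages were fitted with genotype alone, windows and all stages with somite number and sex, slopes on somite number per genotype, and co-variation on group-centred log2 CPM (prior count 2) with group as a factor. Correlations of 45 pairs had two-sided p-values from 100000 permutations within groups. Adjusted values come from the fits alone. Alternatives included DESeq2 1.42.0. Scripts were tested on simulated counts. Within groups, libraries differed beyond sampling noise (chi-square per degree of freedom 5.12 to 72.3 over 42 pairs), so each counted once. P-values of the fits set an effect against the spread between these embryos, with that spread moderated over all genes. Permutation p-values set r against shuffles within groups.

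The genes, gene lists and tests were chosen with earlier results of these data known. The text names the 10 genes, the 3 most like each, and up to 5 genes per list with the smallest adjusted p in the wt slope.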

Additional observations from a re-analysis of the deposited data

Results flagged for a closer look

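Of 40 groups of 4 embryos (4 groups for each of the 10 genes), 2 held an embryo that stood apart from the others of its group by Dixon's criterion, which chance meets in about 1 in 20 groups. Axin2 was 238 CPM in matdel 6 somites replicate 3, the other embryos of the group being at 150.0 to 153 CPM. Tcf7 was 65.2 CPM in wt 10 somites replicate 1, the others being at 109 CPM. No effect was found to differ between groups.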

How the results depend on the processing

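Depth limits Lgr5, with as few as 5 counts in a library. Single stages rest on 2 to 4 embryos per group. No result of the 10 genes changed its sign while called. In the genotype fits none of the 10 was called under any alternative except with no filter on low counts, where 1 was called at 8 somites (Sp5, 0.77, adjusted p = 0.0171) and 1 at 11 somites (Notum, 0.61, adjusted p = 0.0328). The wt slope, with 3 of the 10 called, gave 2 to 3 when each embryo was left out and 0 with the endoderm and erythroid sums as covariates. The matdel slope, with 2 called, gave 2 to 3 when each embryo was left out, 4 by DESeq2 (Axin2 and Nkd1 added), 1 in females alone and 1 with the covariates. The covariates, and leaving wt 10 somites replicate 1 out of the co-variation fits, spreads and correlations, were chosen after seeing the data.

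Co-variation changed more often, and the cause was not tested. The number of the other 9 genes called with Axin2 was 2. It was 1 without the libraries rich in ribosomal RNA, 4 without the shallowest, 5 with centring on somite number only, 0 with the covariates, and 0 to 4 when each embryo was left out. It was 0 without wt 10 somites replicate 1 or 2, 1 (Dkk1 lost) without wt 7 replicate 1, matdel 7 replicate 1 or wt 9 replicate 2, and 4 (Nkd1, Lef1 or Tcf7 added) without matdel 6 replicate 3, wt 8 replicate 2 or matdel 9 replicate 1. With Nkd1, 2 were called, and 1 with DESeq2 size factors, with no filter, without the ribosomal RNA-rich or shallowest libraries, or without wt 10 somites replicate 1. With Sp5, 2 were called, 1 with no filter, without the shallowest libraries or with the covariates, and 0 without that embryo. With Sp8, 1 was called, 3 without the ribosomal RNA-rich libraries, 2 with centring on somite number only, and 0 with the covariates or without that embryo. With Lef1, 5 were called, 2 with the covariates and 0 without that embryo. With Tcf7, 7 were called, 4 with the covariates and 0 without that embryo. With Notum, 0 were called, and 1 without the shallowest libraries, with centring on somite number only or without that embryo. With Znrf3, 1 was called, 2 without the shallowest libraries, and 0 with the covariates or without that embryo.

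Replicate numbers were not treated as pairs in the main fits. Same-numbered wt and matdel embryos of a stage had correlations of -0.29 to 0.58 (median 0.01) over 16 pairs, 4 above 0.1. In groups of 2 embryos the centred values mirror each other, so these correlations cannot settle whether the numbers paired embryos. With the replicate block 4 of the 10 were called in the matdel slope (added: Notum, -0.14, adjusted p = 0.0439, and Nkd1, -0.09, adjusted p = 0.0279), and 4 with Axin2, 1 with Nkd1, 1 with Sp5, 0 with Sp8 and 2 with Lef1. It moved no other count of these calls by over 1.5 times.

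Genes called in the wt slope were 856, against 1802 in females alone, 12 with the covariates and 1943 without wt 10 somites replicate 1. In the matdel slope they were 639, against 1508 by DESeq2, 175 in females alone, 61 with the covariates and 372 without the ribosomal RNA-rich libraries. The slope difference gave 0, against 39 with no filter and 1 with the covariates. Genotype over all stages gave 2, against 1 in females alone. Genotype at 6 to 8 somites gave 1, against 39 with no filter, 29 by DESeq2 and 0 to 2 when each embryo was left out, and at 9 to 11 somites 1 against 0 to 1. Counts over all co-varying genes moved widely, for Axin2 from 108 to between 0 and 694 and for Tcf7 from 2560 to between 128 and 3227.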
